A study of Bos taurus with 9 samples.

Results

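Mature bovine oocytes that had been exposed to iodoacetate (IA) during in vitro maturation were compared with oocytes exposed to dichloroacetate (DCA), across all expressed genes. The comparison used 6 of the 9 libraries of the series, 3 per compound, chosen by the treatment in the labels. Cumulus-oocyte complexes from Bos taurus ovaries, collected at a slaughterhouse, matured for 24 h in a medium with serum, FSH, hCG and estradiol and with one of the compounds, and only denuded oocytes with a first polar body were kept. A library stands for 5 pooled oocytes, and the remaining 3 libraries of the series, oocytes matured with neither compound, serve here as a reference outside the test. The labels list doses from 0.1 to 5 mM for DCA and from 0.1 to 5 µM for IA without saying which the sequenced oocytes received, so the doses are not known to be matched.

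IA and DCA are both small acetates in which halogen atoms replace hydrogens on the carbon beside the acid group. IA binds the reactive cysteine of glyceraldehyde-3-phosphate dehydrogenase and so blocks a step of glycolysis upstream of pyruvate. DCA inhibits the kinases that switch off pyruvate dehydrogenase and so favours the entry of pyruvate into the citric acid cycle. An oocyte takes much of its pyruvate from the surrounding cumulus cells. A mature oocyte makes little new RNA, and its messenger RNA is largely a store built up during growth, which is translated, modified or degraded as maturation proceeds.

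Libraries were handled here as 3 assumed pairs, by the order of the numbers in their titles: number 10 with 16, 11 with 17 and 12 with 18. These are pairs 1, 2 and 3, and the libraries of a group are numbered alike. The labels state no such pairs. The order was singled out earlier from the same counts, because libraries of the same position deviated together, so the gain in precision from the pairing is a description and no independent support for it. The 6 libraries held 7776877 to 9454723 counts and 15150 to 15516 genes with at least 1 count. The 10 most abundant genes took 7.99% to 10.3% of the counts. Library 2 had the lowest such share in both groups, 8.25% with IA and 7.99% with DCA. Among the control libraries, library 2 also had the lowest share, 7.63%. Separate maturation runs or ovary collections for the pools of a group are not stated, so p-values cover only the spread between the libraries, some of which may be technical.

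With the assumed pairs as a block, 11 transcripts differed between the compounds. Of these, 9 were lower with IA than with DCA and 2 were higher. The differences were moderate, from 1.84-fold to 2.66-fold for the 9 lower transcripts. All 11 went the same way in all 3 pairs, as did 21.5% of all tested genes. A call in a fit blocked by these pairs favours such genes, so this is no separate support. Without the block, 0 transcripts passed, and 0 passed when the control libraries joined the blocked fit. Of the 11 calls, 1 was left with upper quartile scaling and 1 without robust estimation. The test was the quasi-likelihood F test of edgeR, with Benjamini-Hochberg adjusted p-values over 11411 genes. At an unadjusted p under 0.05 that fit without the block had 203 genes. The 9 lower transcripts were 0.0789% of the genes tested, the 2 higher ones 0.0175%, and all 11 together 0.0964%. The genes are known here only by their Ensembl identifiers, and the first 2 in each direction are named.

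ENSBTAG00000049406 had the smallest p. It stood at 18.3, 10.98 and 41.7 CPM (counts scaled to a common library size) in IA libraries 1, 2 and 3, and at 42.6, 37.9 and 99.9 CPM in DCA libraries 1, 2 and 3. IA was lower in each pair, although the groups overlapped, since IA library 3 lay above DCA library 2. Library 3 was the highest in both groups. In the blocked fit the log2 fold change was -1.41 ± 0.19 (standard error), and edgeR's adjusted p was 0.00232. The 95% confidence interval ran from 0.287 to 0.491 of the DCA level. Without the block the change was -1.34 ± 0.56 (standard error), with an adjusted p of 0.99995 in edgeR. The means were 23.7 ± 16.1 CPM with IA and 60.1 ± 34.5 CPM with DCA (SD, n = 3 each).

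ENSBTAG00000055060 was the second of the lower transcripts. It stood at 33.3, 28.8 and 68.2 CPM in IA libraries 1 to 3 and at 63.4, 94.5 and 130.6 CPM in DCA libraries 1 to 3. Here too IA was lower in each pair, while IA library 3 lay above DCA library 1. In the blocked fit the log2 fold change was -1.19 ± 0.18 (standard error), with an adjusted p of 0.0108 in edgeR. Without the block the standard error was 0.32 and the adjusted p 0.99995.

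ENSBTAG00000050367 was the first of the transcripts higher with IA. It stood at 35.3, 17.9 and 55.7 CPM in IA libraries 1 to 3 and at 13.9, 10.3 and 14.7 CPM in DCA libraries 1 to 3. The groups did not overlap, and the DCA libraries lay close together while the IA libraries spread about their mean of 36.3 ± 18.9 CPM (SD, n = 3). In the blocked fit the log2 fold change was 1.37 ± 0.22 (standard error), with an adjusted p of 0.0129 in edgeR. The 95% confidence interval ran from 1.87-fold to 3.55-fold.

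ENSBTAG00000011224, the other higher transcript, stood at 70.5, 79.2 and 28.9 CPM in IA libraries 1 to 3 and at 32.1, 50.4 and 14.3 CPM in DCA libraries 1 to 3. Library 2 was the highest and library 3 the lowest in both groups, so the groups overlapped although IA was higher in each pair. In the blocked fit the log2 fold change was 0.93 ± 0.18 (standard error), and edgeR's adjusted p was 0.0440. Without the block the standard error was 0.47 and the unadjusted p 0.0977.

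**Figure D1:**
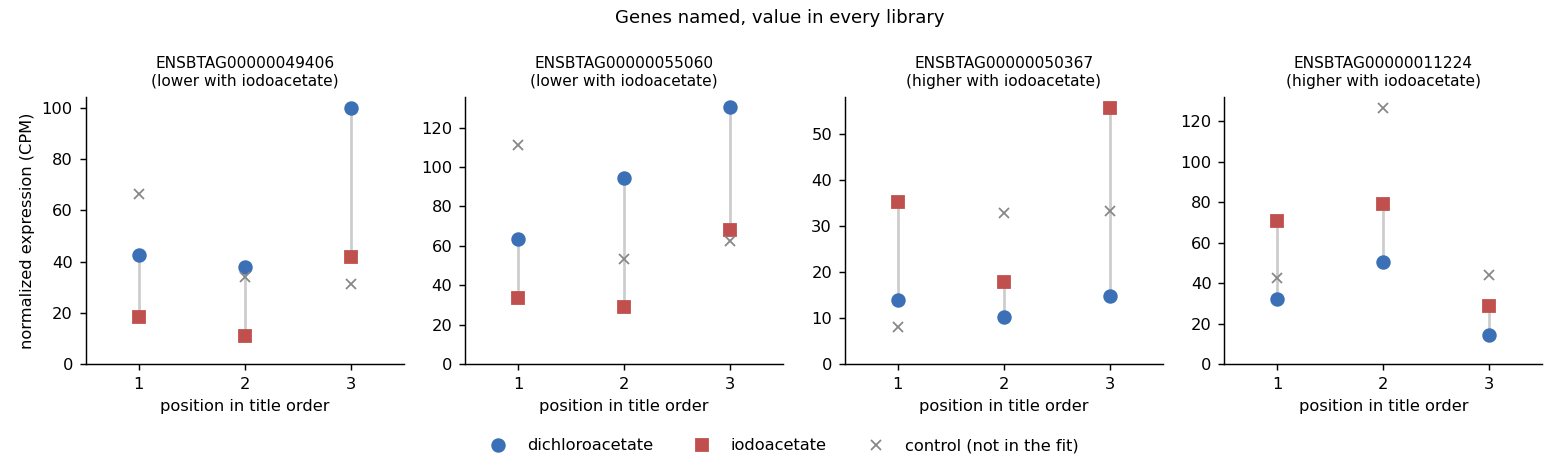
Normalized expression (CPM, linear axis from 0) of the named genes in every library, by position in title order; squares are iodoacetate, circles dichloroacetate, crosses control libraries, and grey lines join the libraries of an assumed pair. For ENSBTAG00000049406 the iodoacetate libraries sit at 18.3, 10.98 and 41.7 CPM, each below its partner at 42.6, 37.9 and 99.9 CPM.

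The other 7 transcripts were all lower with IA. Their means ran from 6.11 to 207 CPM with IA and from 14.7 to 374 CPM with DCA, their log2 fold changes from -1.40 to -0.88, and their adjusted p-values in edgeR from 0.0129 to 0.0486. IA and DCA libraries did not overlap for 4 of these 7 and for 5 of all 11, where 4.63% of all tested genes showed no overlap. The 11 were chosen for a difference between these groups, so a larger share follows from the choice and nothing is read from it. The abundance of the 11 ranged over an average log2 CPM of 3.39 to 8.17, and the smallest count behind any of them in a single library was 46. Among the 9 lower transcripts the median log2 difference was -1.01 in pair 1, -1.34 in pair 2 and -0.93 in pair 3. Pair 2 gave the largest difference for 7 of the 9. One pair of genes among the 9 had nearly the same count in every library of the series, within 1.63% of each other, with 23806 and 23979 counts in all. Whether these rows share reads cannot be told from the table, and counted once they leave 8 lower transcripts. Such near-identical rows, within 2% in all 9 libraries, involved 34 of the tested genes, or 0.298%.

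**Figure D2:**
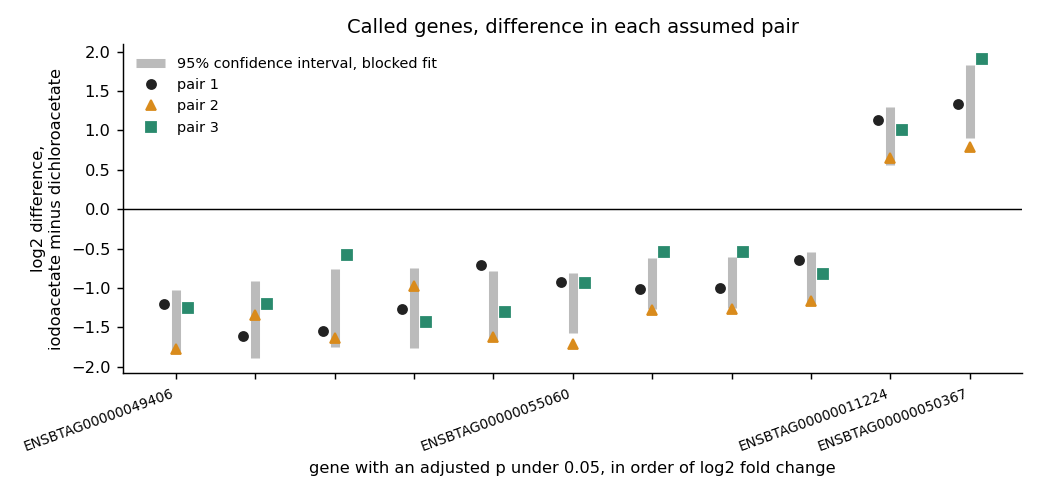
Log2 difference, iodoacetate minus dichloroacetate, of each called gene in pair 1 (circles), pair 2 (triangles) and pair 3 (squares), drawn beside the 95% confidence interval of the blocked fit (grey bars); only the named genes carry labels. All 33 points lie on the side of the fitted change, where their selection tends to put them. Their size runs from 0.54 to 1.91 on the log2 scale.

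Within the groups, most of the lower transcripts stood highest in the same position. Of the 9 lower transcripts, 7 were highest in library 3 with IA and 7 were highest in library 3 with DCA, and 6 had their highest value in the same position in both groups. Over all tested genes, 47.6% had the same position highest in both groups. Of the 11, 9 had an unadjusted p under 0.05 for a difference between positions (20.7% of all tested genes), and 5 passed adjustment for it (3.12%). A call in the blocked fit favours genes whose error is small once position is removed, and the test of positions uses the same error, so nothing is read from these counts or from the standard errors that follow. The median standard error of the 11 was 0.19 with the block and 0.29 without it. Without the block, 10 of the 11 had an unadjusted p under 0.05, and the adjusted p-values of the 11 ran from 0.807 to 0.99995 in edgeR.

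In the control oocytes most of the lower transcripts stood highest in another position. There, 7 of the 9 lower transcripts were highest in library 1 and 2 in library 3. The near-identical rows are both among these 7. For 1 of the 9 the same position was highest in all 3 groups. Both higher transcripts had that too, which makes 3 of the 11, or 27.3%, beside 28.5% of all tested genes. ENSBTAG00000049406 stood at 66.2, 34.0 and 31.3 CPM in control libraries 1, 2 and 3, and ENSBTAG00000055060 at 111, 53.5 and 62.7 CPM. Control library 1 was thus the highest for both, where the treated groups had their highest value in library 3. ENSBTAG00000050367 stood at 8.14, 32.7 and 33.3 CPM in the control, which spans the DCA libraries and part of the IA range, and library 3 was its highest in every group. ENSBTAG00000011224 stood at 42.7, 126.5 and 44.0 CPM, highest in library 2 as in both treated groups.

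When the control libraries joined the blocked fit, 0 of 12016 genes passed between IA and DCA in edgeR, with 384 genes, or 3.20%, at an unadjusted p under 0.05. The log2 fold changes hardly moved and the standard errors rose. For ENSBTAG00000049406 the change was -1.39 with a standard error of 0.46, and for ENSBTAG00000055060 it was -1.20 with 0.38. All 11 kept an unadjusted p under 0.05 in that fit, from 2.14e-05 to 0.0475, and their adjusted p-values ran from 0.257 to 0.99951.

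The mean of the controls lay between the means of IA and DCA for 10 of the 11 transcripts, the exception being ENSBTAG00000011224. Genes chosen for a difference between 2 groups tend to have other groups in between. All 9 lower transcripts had an IA mean below and a DCA mean above the control mean. In the blocked fit of all 9 libraries their log2 fold changes against control ran from -1.10 to -0.11 with IA (median -0.86) and from 0.17 to 0.79 with DCA (median 0.29). Both comparisons use the same controls. None of the 11 passed adjustment in edgeR in either of them, where 1.54% of all tested genes passed for IA and 0.0416% for DCA. At an unadjusted p under 0.05 there were 3 of the 11 for IA, against 16.1% of all tested genes, and 3 for DCA, against 13.9%. For ENSBTAG00000011224 the log2 fold change against control was -1.15 ± 0.24 (standard error) with DCA, where edgeR's adjusted p of 0.0625 does not pass, and -0.21 ± 0.23 (standard error) with IA.

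Across all expressed genes the compounds differed little, and the block narrowed the error. The median absolute log2 fold change was 0.14 with and without the block. The median standard error was 0.23 with the block and 0.28 without it. The block gave the smaller p for 8837 of the 11411 genes, or 77.4%. At an unadjusted p under 0.05 the blocked fit had 419 genes, or 3.67% of those tested, with 214 higher and 205 lower with IA. The fit without the block had 203, or 1.78%, with 92 higher and 111 lower. Both lists shared 197 genes, all in the same direction, and 222 were found with the block only and 6 without it only. Both shares lie under the 5% that evenly spread p-values give, so the called transcripts stand at the tip of a list with fewer small p-values than such a spread.

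**Figure D3:**
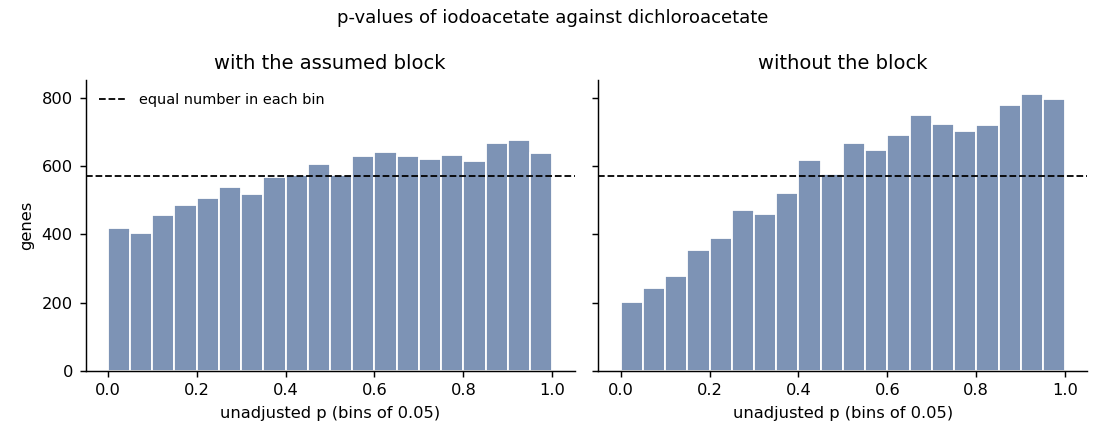
Number of genes (vertical axis) by unadjusted p (horizontal axis, bins of 0.05) for iodoacetate against dichloroacetate, with the assumed block (left) and without it (right); the dashed line is an equal number in each bin. The first bin holds 419 genes on the left and 203 on the right, and the bars climb towards p of 1 more steeply without the block.

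The precision allows a bound on most differences between these groups of libraries. Like the p-values, the intervals cover only the spread between the libraries. With the block, the 95% confidence interval of the IA to DCA ratio lay within 2-fold in either direction for 8772 genes, or 76.9%, and within 1.5-fold for 4930, or 43.2%. Without the block these shares were 71.3% and 25.7%. When the control libraries joined the blocked fit they were 72.2% and 37.9% of 12016 genes. For the 4096 abundant genes, those with an average log2 CPM above 5, the blocked intervals lay within 2-fold for 98.6% and within 1.5-fold for 86.9%. For abundant genes without the block it was 97.9% and 60.6%, so the tighter bound rests partly on the assumed pairs. Of the 4608 genes between 2 and 5, 88.6% lay within 2-fold with the block, and 80.3% of genes at that level without it. Of the 2707 genes at or below 2, 24.1% lay within 2-fold with the block, and 15.6% at that level without it. In either fit 0 of them lay within 1.5-fold, so differences of that size could not be bounded for scarce transcripts in these libraries. The estimated difference exceeded 2-fold for 110 genes, 82 of them scarce and 2 of them abundant.

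Across genes, the differences seen in a pair bore little relation to those in another, except that pairs 1 and 2 tended to go opposite ways. The pairs share no library, so their log2 differences (IA minus DCA, from log2 CPM with a prior count of 2) can be set against each other. Over the 11411 genes Pearson's r was -0.13 between pairs 1 and 2, 0.03 between pairs 1 and 3, and 0.02 between pairs 2 and 3. These are correlations over genes of single library pairs, and genes are not independent. The sign agreed for 41.3%, 51.4% and 50.3% of genes in the same order. For the 4096 abundant genes r was -0.23, 0.05 and 0.08, and the sign agreed for 36.0%, 52.0% and 51.7%. Why pairs 1 and 2 tended to go opposite ways was not tested. In all 3 pairs 1321 genes were higher and 1133 lower with IA, together 21.5% of those tested. Of 46 genes over 2-fold the same way in pairs 1 and 2, 21 went that way in pair 3. For pairs 1 and 3 it was 40 of 70 in pair 2, and for pairs 2 and 3 it was 33 of 72 in pair 1.

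**Figure D4:**
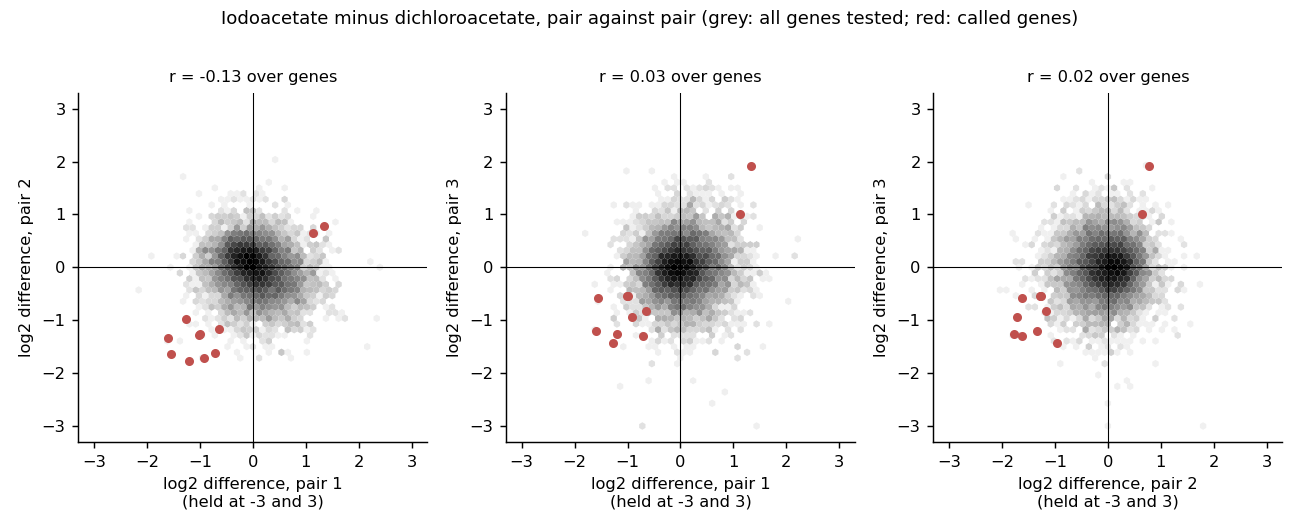
Log2 difference, iodoacetate minus dichloroacetate, in one assumed pair against another (both axes log2, values beyond -3 and 3 drawn at those limits); darker grey marks more genes on a log scale, and red points are the called genes. The grey clouds show no slope upwards, with r of -0.13, 0.03 and 0.02, and the red points lie at their edges in the 2 quadrants of shared direction, where their selection puts them.

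In all 3 pairs 10 genes differed over 2-fold in the same direction, 7 lower and 3 higher with IA. Of these 10, 2 were among the called transcripts, ENSBTAG00000049406 and one of the unnamed lower ones. ENSBTAG00000049406 was the only abundant gene of the 10, and 6 were scarce. The other 8 had adjusted p-values of 0.119 to 0.831 in edgeR, which do not pass.

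The position in title order, singled out earlier from these same counts, accounted for more of the variation among the 6 libraries than the compound did. Its share and the counts of genes that differ between positions are a description and no independent support for the block. Over all tested genes the block took 53.3% of the sum of squares of log2 CPM, the treatment 14.8% and the rest 31.9%. The block and the rest have 2 degrees of freedom each and the treatment 1, so mean squares are the fair comparison. They were 0.216 for the block, 0.120 for the treatment and 0.129 for the rest. For the abundant genes the block took 65.1% and the treatment 10.5%, with mean squares of 0.130 and 0.0418 against 0.0486 for the rest. The treatment mean square was thus no larger than that of the rest, over all genes and for the abundant ones. In the blocked fit 356 genes, or 3.12%, passed edgeR's adjusted threshold for a difference between positions, and 2358 had an unadjusted p under 0.05. Position 3 differed from position 2 for 622 genes, position 2 from position 1 for 135, and position 3 from position 1 for 10.

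Libraries of the same position deviated from their group means together, which is the observation that singled out the order. The correlation of deviations over genes was 0.11 for pair 1, 0.34 for pair 2 and 0.27 for pair 3. For libraries of different positions it ran from -0.26 to 0.02. Deviations within a group sum to zero, so high values within pairs force low values elsewhere. With the pairs as a random effect, limma estimated a correlation of 0.34 within them.

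**Figure D5:**
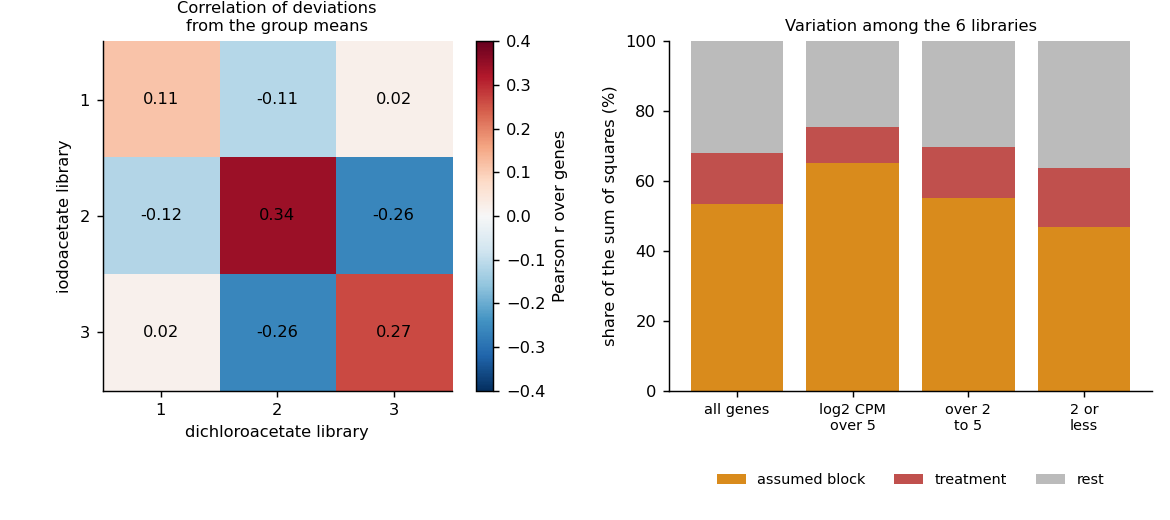
Left, Pearson correlation over genes of the deviations of each iodoacetate library (rows) and dichloroacetate library (columns) from its group mean; the diagonal holds the assumed pairs, at 0.11, 0.34 and 0.27. Right, share of the sum of squares among the 6 libraries (percent) taken by the assumed block, the treatment and the rest, for all genes and by average log2 CPM; the block takes 53.3% over all genes and 65.1% for those above 5.

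Other settings, other tools and fewer libraries changed which transcripts passed. In edgeR with the block, upper quartile scaling and the fit without robust estimation each left 1 of the 11 called, ENSBTAG00000049406, with adjusted p-values of 0.0183 and 0.0227. In the same order, edgeR's adjusted p was 0.0505 and 0.0740 for ENSBTAG00000055060, 0.0595 and 0.0740 for ENSBTAG00000050367, and 0.131 and 0.123 for ENSBTAG00000011224. DESeq2 with the block called 2 higher and 9 lower, 10 of them shared with edgeR, and limma with voom weights and the block called 1 higher and 7 lower, all 8 shared. With the pairs as a random effect limma called 0, with 434 genes at an unadjusted p under 0.05. Without pair 1, 0 were higher and 1 lower, and none of the 11 passed. Without pair 2, 2 were higher and 1 lower, and 2 of the 11 passed, ENSBTAG00000049406 with an adjusted p of 0.0312 and ENSBTAG00000050367 with 0.00922 in edgeR. Without pair 3, 10 were higher and 12 lower, 8 of the 11 among them. ENSBTAG00000011224 did not pass in edgeR without any of the pairs, with adjusted p-values of 0.106 to 0.456. The named transcripts kept their direction in each of the 15 alternatives run. They were chosen for going the same way in all 3 pairs, so nothing is read from that. ENSBTAG00000049406 passed in 10 of the 15, ENSBTAG00000055060 and ENSBTAG00000050367 in 7 each, and ENSBTAG00000011224 in 4.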

How the data were processed

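The deposited table holds raw counts of reads for 15978 Ensembl gene identifiers, without normalization by the authors. Per the submitters' processing notes, Trim Galore, cutadapt, STAR, featureCounts and DESeq2 were used; no version, build, annotation or counting mode is stated there, so near-identical or overlapping genes are uncertain. The libraries came from a SMART-Seq HT kit without molecular identifiers, so counts include amplification copies. Of the identifiers, 0 matched the gene table supplied, so gene lists (glycolysis, pyruvate dehydrogenase, chromatin, cell type markers) and sequences were not analysed here.

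The 6 libraries were fitted with edgeR 4.0.16 in R 4.3.3 (TMM, default filter by treatment, robust quasi-likelihood test), with treatment and the assumed block. The filter kept 11411 genes and left out 4567. An adjusted p under 0.05 counted as a call. The blocked fit leaves 2 residual degrees of freedom per gene and the unblocked one 4, and edgeR borrows the rest across genes. CPM values shown use TMM over all 9 libraries. Alternatives used limma 3.58.1 and DESeq2 1.42.0. On simulated counts for the 6 libraries, edgeR was run with and without the block, DESeq2 with it, and limma with it fixed and random. The simulation took the assumed pairs as true blocks and gave every gene the same dispersion (spread beyond counting error). It therefore cannot show whether the pairs or the real spread are handled rightly, and nothing is read from it. The other fits and settings were not tested in this way. Libraries of a group were not copies of each other (chi-square of their counts over genes, 14.8 to 28.1 per degree of freedom). The labels give no pairing. Every pair's deviations correlated above 0.1, which restates the observation that singled out the order and is no separate ground for the block. Named genes were the 2 with the smallest p in each direction that were called and went the same way in all 3 pairs. The comparison, the block and the lists were chosen with earlier results of these data known.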

Additional observations from a re-analysis of the deposited data

How the results depend on the processing

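The main counts were 2 genes higher, 9 lower and 419 at an unadjusted p under 0.05. With no replicate block they were 0, 0 and 203. With the block and all 9 libraries 0 were higher and 0 lower, and with 9 libraries and no block they were 0, 0 and 186. As a random effect in limma the block gave 0 and 0. limma voom with the block gave 1 higher, upper quartile scaling 0 and 1, and no robust estimation 0 and 1. No filter gave 8 and 14, and the stricter filter (10 CPM in 3 libraries) 1 higher. That filter kept 6641 genes, where the main fit tested 11411, and 242 of the 6641 had an unadjusted p under 0.05. DESeq2, which gave an adjusted p to 7608 of 15964 genes, had 237 at an unadjusted p under 0.05. Leaving out 1 pair gave 0 to 10 higher, 1 to 12 lower and 316 to 696 at an unadjusted p under 0.05 (696 without pair 2). Without the block, leaving out 1 library gave 0 to 1 higher (the 1 without IA library 2), 0 lower and 167 to 450 at an unadjusted p under 0.05 (338 without IA library 2, 450 without DCA library 2). The cause was not tested; the 4-library fits leave 1 residual degree of freedom. RLE scaling kept all 11 calls, and a threshold of 0.1 gave 2 and 10. The removal of mitochondrial genes was not run, because no gene could be named. The median standard error was 0.43 for scarce genes and 0.16 for abundant ones, and whether depth, amplification or the pools set this was not tested.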
